A study of Caenorhabditis elegans with 2 samples.

Results

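MicroRNA genes were examined for the presence of the LIM homeobox protein CEH-14 on the genome of C. elegans embryos. All 261 nuclear genes of biotype miRNA in the Ensembl 115 annotation of WBcel235 were taken, out of 46890 nuclear genes in all, and each was extended by 1000 bases on both sides. Of the 261 members, 152 were intergenic, 97 lay in an intron of a protein-coding gene on either strand, and 12 overlapped an exon of one. Another miRNA gene on the same strand lay within 10000 bases of 81 members (called clustered, in 29 clusters), and the other 180 were single. Counted with each cluster once, the members form 209 loci.

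The study mapped a tagged CEH-14 by chromatin immunoprecipitation and sequencing (ChIP-seq), in which DNA bound by a protein is recovered with an antibody. It holds 1 group of 2 biological replicates: hermaphrodite late embryos of strain OP315, a stable transgenic line with GFP-FLAG fused to the C-terminus of CEH-14, taken 5 hours after egg bleaching. The antibody was against GFP, per the labels, and the chromatin came from whole animals. No control library or untagged line was analysed here, so the level at these windows without the tagged protein was not measured here. In whole animals, the number of cells that carry the protein and its occupancy in each cell cannot be told apart.

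MicroRNAs are short RNAs that are cut by Drosha and Dicer from hairpins in longer primary transcripts and loaded into Argonaute proteins. They pair with messenger RNAs mainly through the seed, the bases close to their 5′ end, and lower the output of those targets, so genes with the same seed form a family with overlapping targets. In C. elegans the first members known, lin-4 and let-7, time larval development, and lsy-6 sets the left-right difference of a pair of taste neurons. The mir-35 and mir-51 families are needed for embryonic development. CEH-14 is best known from neurons, several of which need it to take on their identity, and LIM homeodomain proteins are known to bind DNA around the palindrome TAATTA.

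Mature miRNAs of genes described below are shown first, because a shared seed defines a family, for genes with and without a peak that passed the authors' filter. Each was read from the RefSeq copy of the WBcel235 genome at the coordinates of the annotation and is written 5′ to 3′ as RNA, with the seed (bases 2 to 8) in capitals.
mir-51-5p: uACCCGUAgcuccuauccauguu
mir-52-5p: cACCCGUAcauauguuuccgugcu
mir-53-5p: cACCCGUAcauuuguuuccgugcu
mir-54-3p: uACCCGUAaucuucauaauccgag
mir-55-3p: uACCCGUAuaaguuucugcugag
mir-56-3p: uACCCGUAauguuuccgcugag
mir-35-3p: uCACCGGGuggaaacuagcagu
mir-40-3p: uCACCGGGuguacaucagcuaa
mir-80-3p: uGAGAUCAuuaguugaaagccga
mir-90-3p: uGAUAUGUuguuugaaugccccu
mir-62-3p: uGAUAUGUaaucuagcuuacag
mir-124-3p: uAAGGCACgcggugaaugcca
lin-4-5p: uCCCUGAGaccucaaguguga
let-7-5p: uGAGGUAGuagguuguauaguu

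The annotation gave 458 mature sequences for 260 of the 261 members, and 46 seeds were shared by at least 2 members. The seed ACCCGUA was held by all 6 genes of the mir-51 family, on the 5′ arm in mir-51, mir-52 and mir-53 and on the 3′ arm in mir-54, mir-55 and mir-56. The seed CACCGGG was held by the 8 genes mir-35 to mir-42, on the 3′ arm.

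Stretches of 101 bases centred on chosen IDR summits near these genes are given next, as examples and not as the strongest of all. They are from WBcel235 (ce11) on the strand of the miRNA gene, and capitals mark GAGAGA or its reverse complement TCTCTC.
mir-52, rank 119, chrIV:14033696-14033796, plus strand: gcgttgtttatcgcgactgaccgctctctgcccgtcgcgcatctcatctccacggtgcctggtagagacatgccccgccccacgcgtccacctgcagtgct
mir-52, rank 574, chrIV:14033898-14033998, plus strand: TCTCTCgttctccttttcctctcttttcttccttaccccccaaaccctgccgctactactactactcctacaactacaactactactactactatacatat
mir-51, rank 236, chrIV:11026095-11026195, minus strand: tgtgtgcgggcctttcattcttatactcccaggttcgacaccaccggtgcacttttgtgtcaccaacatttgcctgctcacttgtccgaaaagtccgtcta
mir-54, rank 367, chrX:13145305-13145405, minus strand: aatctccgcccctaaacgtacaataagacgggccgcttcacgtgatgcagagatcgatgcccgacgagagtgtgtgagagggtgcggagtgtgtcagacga
mir-35, rank 1398, chrII:11537177-11537277, plus strand: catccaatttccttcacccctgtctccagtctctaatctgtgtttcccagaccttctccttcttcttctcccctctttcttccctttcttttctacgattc
mir-90, rank 416, chrIII:8874295-8874395, minus strand: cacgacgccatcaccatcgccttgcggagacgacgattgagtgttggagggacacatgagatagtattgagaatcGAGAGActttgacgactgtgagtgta
mir-80, rank 601, chrIII:8865505-8865605, minus strand: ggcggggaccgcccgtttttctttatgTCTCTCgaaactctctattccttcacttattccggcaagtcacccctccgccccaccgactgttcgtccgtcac
mir-124, rank 611, chrIV:11872037-11872137, plus strand: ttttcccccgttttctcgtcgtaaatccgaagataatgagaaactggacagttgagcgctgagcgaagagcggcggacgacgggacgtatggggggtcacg

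The authors deposited 1681 peaks that passed a filter on the irreproducible discovery rate (IDR, which scores agreement between the replicates in peak rank). They also deposited longer relaxed lists that hold background regions as well as peaks. The relaxed lists had 21766 entries for both replicates pooled, 21217 for replicate 1 and 19577 for replicate 2. Each entry has a signal value of the authors' own. Rank 1 is the highest signal in a list, and signals were not compared between lists. At each miRNA gene with an IDR summit, its rank in the IDR list equalled that in the pooled list. The IDR list is thus not evidence apart from pooled rank at these genes. An IDR peak can also differ in rank between replicates. The strongest entry ranked 833 in replicate 1 and 3353 in replicate 2 at mir-1824, and 8676 and 949 at the protein-coding gene pash-1. A gene was counted when the summit of an entry, its highest point, fell in its window. Read numbers are not in these lists, so depth is unknown, and the intervals given here cover counting error only.

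An IDR summit lay in the window of 32 of the 261 miRNA genes, or 12.3% (95% Wilson interval 8.82 to 16.8%), among them 5 of the 6 genes of the mir-51 family and 6 of the 8 of the mir-35 family. By the same rule the share was 6.49% of all nuclear genes, 9.25% of protein-coding genes and 8.64% of ncRNA genes. It was 3.26% of tiles of 2095 bases, the length of a typical miRNA window, laid along the nuclear genome. Counted by gene, the miRNA interval lies above the values for all genes and for tiles. It includes the value for protein-coding genes and begins just above that for ncRNA genes. Protein-coding windows are longer by the length of the gene. The 32 genes held 21 distinct strongest summits, since 16 of them shared 5 summits with neighbours. Counted by locus, 21 of 209 had one (10.05%, 6.67 to 14.9%). That interval includes the values for protein-coding genes and for ncRNA genes, and begins just above that for all nuclear genes. The comparison shares were not counted by locus.

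In the pooled relaxed list, 150 of 261 miRNA genes had a summit (57.5%, 51.4 to 63.3%), of which 118 had no IDR summit. The share was 42.3% of all nuclear genes, 57.1% of protein-coding genes, 52.6% of ncRNA genes and 34.4% of tiles. Replicate 1 had a summit at 143 miRNA genes (54.8%), against 42.5% of all nuclear genes and 57.8% of protein-coding genes. Replicate 2 had one at 123 (47.1%), against 40.7% and 55.3% of those genes. In each relaxed list the miRNA genes were thus above the share over all genes and close to or below protein-coding genes. No relaxed list had an entry at 81 members.

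Signal at the miRNA genes was close to that elsewhere in the same lists. The 21 distinct strongest IDR summits of members had a median signal of 112.9, against 102.6 over all 1671 nuclear IDR peaks. Counted by gene, the IDR median was 103.9 over the 32 miRNA genes and 107.4 over all nuclear genes with an IDR summit. In the pooled list the median over miRNA genes with an entry was 36.0, against 35.9 over all nuclear genes with one.

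**Figure D1:**
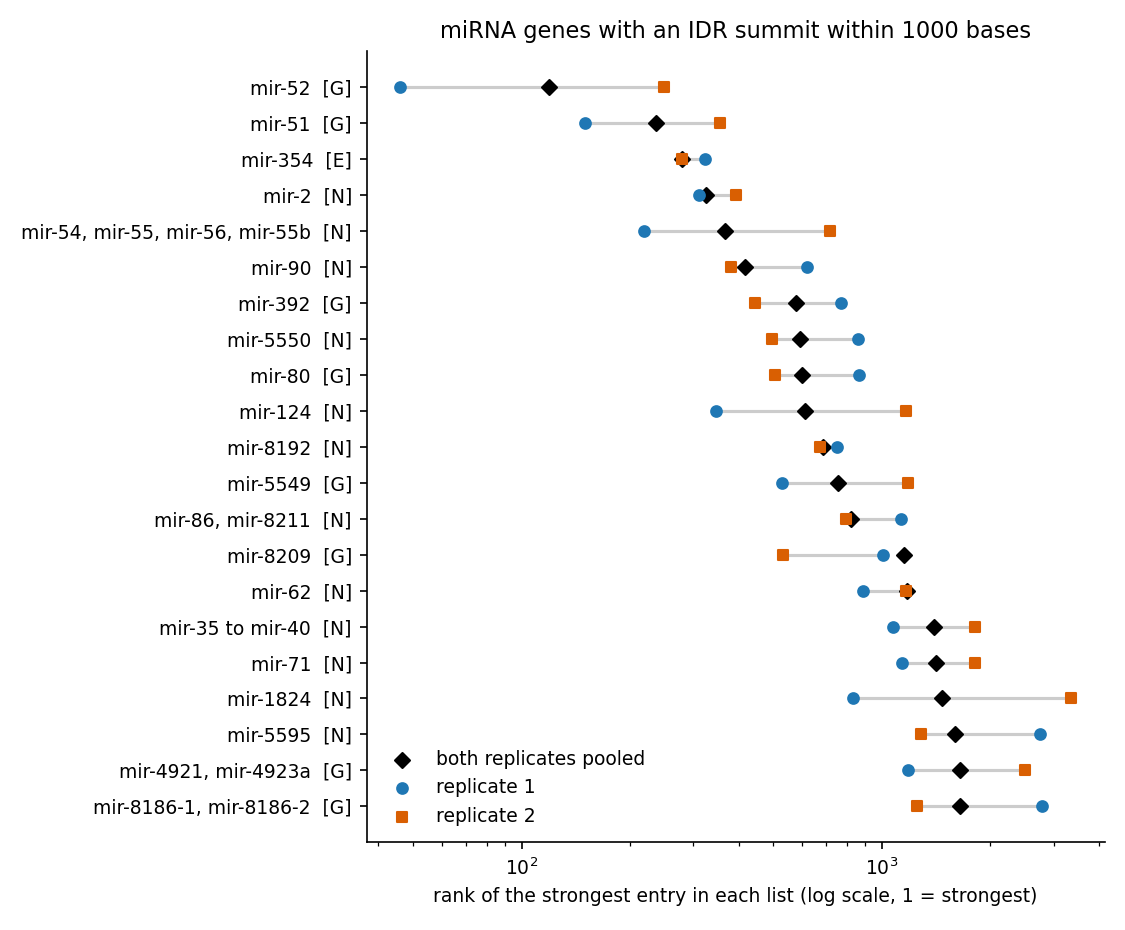
Rank of the strongest entry at each of the 21 summits that serve the 32 miRNA genes with an IDR summit, in the pooled list (diamonds), replicate 1 (circles) and replicate 2 (squares), on a log axis where 1 is the strongest. Letters give the class of the first gene (G intergenic, N intronic, E exonic), and mir-52 is at the top with pooled rank 119.

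The mir-51 family held the strongest peaks among the miRNA genes, those of mir-52 and mir-51, while mir-354 and mir-2 ranked above its other members. At mir-52 (chromosome IV, 14034008 to 14034107, plus strand, intergenic) the signal was 220.1 in the pooled list, 135.7 in replicate 1 and 91.8 in replicate 2, at ranks 119, 46 and 248. It was the only one of the 32 genes within the strongest 100 entries of a replicate. Its summit lay 262 bases upstream of the gene, and another IDR summit of rank 574 lay 60 bases upstream. The nearest protein-coding start to the stronger summit, of Y37A1B.7, was 10034 bases away.

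The gene mir-51 (IV, 11026013 to 11026112, minus strand, intergenic) had signals of 170.8 pooled, 94.8 in replicate 1 and 80.1 in replicate 2, at ranks 236, 150 and 356, with the summit 33 bases upstream. Its neighbour mir-53, in the same cluster, had no IDR summit. There the strongest pooled entry had a signal of 65.4 at rank 2134, 60 bases upstream, and ranked 1764 in replicate 1 and 4188 in replicate 2. The cluster of mir-54, mir-55 and mir-56 lies on chromosome X (13144691 to 13145094, minus strand) in an intron of F09A5.3, which is on the other strand. A summit of rank 367 served all 3 genes and the antisense gene mir-55b, and lay 261 bases upstream of mir-54. Its signals were 142.9 pooled, 83.6 in replicate 1 (rank 218) and 60.9 in replicate 2 (rank 716). Another summit of rank 1372 lay 219 bases downstream of mir-56. All 5 genes of the family with an IDR summit ranked higher in replicate 1 than in replicate 2.

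Genes mir-35 to mir-40 (chromosome II, 11537608 to 11538275, plus strand) lie in an intron of Y62F5A.9, which is on the other strand, and share 1 IDR summit 381 bases upstream of mir-35. It was a weaker peak, with a pooled signal of 80.4 at rank 1398, 43.8 in replicate 1 (rank 1073) and 40.3 in replicate 2 (rank 1811). The last gene of the cluster, mir-41, lay too far from that summit and had its own strongest pooled entry at rank 9235. The other family member, mir-42, lies elsewhere on chromosome II beside mir-43 and mir-44, and had a pooled entry at rank 3960 and no IDR summit. The count of 6 genes of this family is therefore a single position.

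Of the mir-58 family, related in seed to bantam of Drosophila, mir-80 had an IDR summit. It lay 188 bases upstream of the gene (III, 8865270 to 8865367, minus strand, intergenic), with signals of 118.9 pooled, 48.3 in replicate 1 and 70.7 in replicate 2, at ranks 601, 863 and 505. The gene mir-58a had a pooled entry at rank 2447, and its strongest entries ranked 1842 in replicate 1 and 1404 in replicate 2. These were at different positions. The summit lay upstream of the gene in replicate 1 (3233067), and downstream in replicate 2 (3233632) and the pooled list (3233636). The listed name mir-1834 was not found in the annotation, and whether it is another name of a gene scored here was not checked. For mir-58b the pooled rank was 5430, with no entry in replicate 2. There was no entry in any list at mir-81 and mir-82. Of 2 further genes with the seed GAGAUCA, mir-58c shared the entry of mir-58b and mir-2209a had none. These genes thus ran between rank 601 and no entry.

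Further IDR summits lay over 1000 bases from any protein-coding start at mir-90, mir-2, mir-71, mir-124 and mir-86. The gene mir-90, in an intron of K01F9.2, had signals of 135.3 pooled, 55.7 in replicate 1 and 77.8 in replicate 2, at ranks 416, 621 and 382, with the summit 261 bases upstream. An intron of ppfr-1 on chromosome I holds mir-2 and mir-71, a miRNA known from lifespan studies. At mir-2 the signals were 150.7, 72.9 and 77.3 in the same lists (ranks 324, 310 and 394), 275 bases upstream. At mir-71 they were 79.9, 42.8 and 40.2 (ranks 1412, 1139 and 1814), 313 bases upstream. The conserved miRNA mir-124, known from ciliated sensory neurons of the worm, lies in an intron of trpa-1, a cation channel gene. Its summit was 254 bases downstream, with signals of 118.3 pooled, 69.4 in replicate 1 (rank 346) and 49.5 in replicate 2 (rank 1167). At mir-86, in an intron of Y56A3A.7, the summit of rank 820 was 514 bases downstream, and it also served mir-8211, which overlaps an exon of that gene. Another summit, of rank 1678, lay 58 bases upstream of mir-8211.

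At other members the summit was also close to the start of a protein-coding gene, and which of the genes it belongs to was not tested. It was 141 bases from the start of ekl-4 at mir-354 (rank 278, 868 bases upstream of the miRNA, which overlaps an exon of the ribosomal protein gene rps-20). It was 264 bases from that of bra-1 at mir-392 (rank 578) and 197 from that of T07A9.12 at mir-5550 (rank 594, in an intron of kgb-1). At mir-8192 (rank 688) the start of its host flcn-1 was 440 bases away, and at mir-5549 (rank 754) that of rfc-4 was 145 bases away. The mirtron mir-62, whose hairpin is an intron of ugt-50, had a summit at rank 1171 that was 339 bases from the start of its host. For mir-1824 (rank 1470) the start of its host Y87G2A.18 was 79 bases away, for mir-5595 (rank 1598) that of its host nurf-1, a chromatin remodelling gene, was 232 bases away, and for the antisense pair mir-8186-1 and mir-8186-2 (rank 1650) that of gmeb-1 was 552 bases away.

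Only 1 of the 32 genes had its strongest summit inside it, mir-8209 (rank 1151). For mir-4921 and mir-4923a, in a cluster of 11 genes on X, the summit of rank 1644 fell inside a small RNA gene, WBGene00023185.

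**Figure D2:**
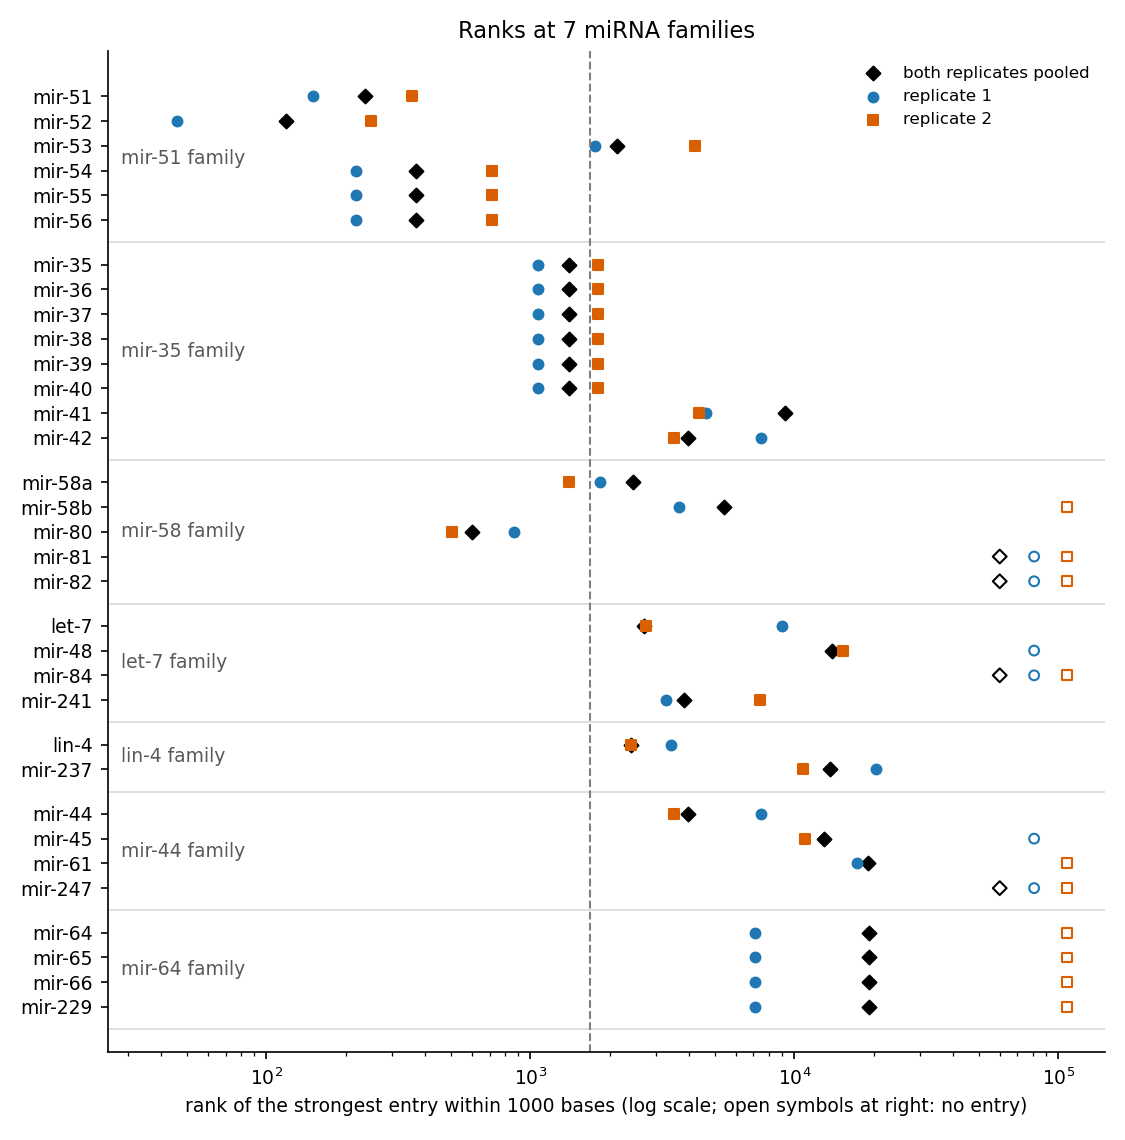
Rank of the strongest entry within 1000 bases at the listed genes of 7 miRNA families, on a log axis, in the pooled list, replicate 1 and replicate 2, with open symbols where a list had no entry. The dashed line is rank 1681, the number of IDR peaks, and genes of the mir-51 and mir-35 families make up most of those left of it.

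The genes that time larval development had no IDR summit. The closest was lin-4 (II, in an intron of F59G1.4), with a pooled signal of 61.3 at rank 2407, 316 bases upstream, and ranks of 3401 in replicate 1 and 2407 in replicate 2. Its family member mir-237 had a pooled rank of 13667. At let-7 (X, 14743590 to 14745321, minus strand) the annotated gene spans its primary transcripts, and the pooled summit of rank 2698 lay inside it. That summit was 715 bases from the start of the longest transcript, and 126 and 310 bases upstream of the starts of the shorter ones. It ranked 8974 in replicate 1 and 2740 in replicate 2. Of the other let-7 family genes, mir-241 ranked 3833, mir-48 ranked 13912 and mir-84 had no entry. The gene mir-795, which has the same seed GAGGUAG, had an entry in replicate 1 alone, at rank 13891.

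Genes of the mir-44 and mir-64 families were at weak entries. The best pooled rank was 3960 in the mir-44 family, at mir-44, and mir-247 had no entry. The 4 genes mir-64, mir-65, mir-66 and mir-229 shared 1 entry at rank 19145, and mir-63, which has the same seed AUGACAC and lies on X, had one at rank 7801. Of miRNAs with known cell types, mir-1 of muscle ranked 4274, lsy-6 ranked 11262, mir-791 of sensory neurons ranked 14588, mir-228 of glia ranked 14843 and mir-273 ranked 19702. No entry was found at mir-34 and mir-57.

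Just below the IDR limit, the 10 strongest members with no IDR summit ran between rank 2113 and rank 2698 of the pooled list. They were mir-4936, mir-53, mir-74 with mir-73 at a shared summit, lin-4, mir-58a, mir-8190, mir-2218b, mir-799 and let-7. The last member with an IDR summit was at rank 1650.

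Fewer intergenic than intronic genes had an IDR summit, 10 of 152 (6.58%, 3.61 to 11.7%) against 20 of 97 (20.6%, 13.8 to 29.7%). Among genome tiles the order was the other way, with 3.86% of intergenic tiles and 2.8% of intronic tiles. The difference between the miRNA classes was -14.0 percentage points (95% Newcombe interval -23.6 to -5.49). It differed by the strand of the host. Of genes whose host was on the same strand 8 of 67 had an IDR summit (11.9%, 6.18 to 21.8%), and of those whose host was on the other strand 12 of 30 (40%, 24.6 to 57.7%). Of these 12 genes, 9 were mir-35 to mir-40 and mir-54 to mir-56, at 2 strongest summits. By locus the counts were 7 of 61 with the host on the same strand (11.5%, 5.67 to 21.8%) and 5 of 21 with it on the other strand (23.8%, 10.6 to 45.1%). Pooled entries were present at 64.2% of genes with the host on the same strand and 66.7% with it on the other strand, a difference of -2.49 points (-21.0 to 18.2). With the genes on the strand opposite the host counted as intergenic, the difference was 0.148 points (-10.5 to 8.14).

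The mir-35 and mir-54 clusters, which supply 10 of the 20 intronic genes from 2 strongest summits, decide much of this. Without the mir-35 cluster the difference was -8.98 points (-18.3 to -1.05), and without both clusters -5.05 points (-14.0 to 2.23). By locus, 9 of 118 intergenic and 12 of 82 intronic loci had an IDR summit (7.63% and 14.6%), with a difference of -7.01 points (-16.9 to 1.69). In the pooled list 81 of 152 intergenic genes (53.3%) and 63 of 97 intronic genes (64.9%) had a summit, a difference of -11.7 points (-23.5 to 0.915), beside 33.9% of intergenic tiles and 35.4% of intronic tiles.

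More clustered than single genes had an IDR summit, 18 of 81 (22.2%, 14.5 to 32.4%) against 14 of 180 (7.78%, 4.69 to 12.6%), a difference of 14.4 points (5.36 to 25.1). It was 8.44 points (0.174 to 18.9) without the mir-35 cluster and 5.41 points (-2.14 to 15.6) without the mir-35 and mir-54 clusters. With the strongest entries of replicate 2 alone, as many as there are IDR peaks, it was 3.33 points (-3.75 to 12.5). With each cluster counted once, 7 of 29 clusters had an IDR summit. Among clustered genes, 4 of 56 intergenic genes and 13 of 24 intronic genes had one, and among single genes 6 of 96 intergenic and 7 of 73 intronic genes. Between clustered and single intergenic genes the difference was 0.893 points (-7.10 to 11.3). In the pooled list 53 of 81 clustered genes (65.4%) and 97 of 180 single genes (53.9%) had a summit, a difference of 11.5 points (-1.43 to 23.5). In replicate 2 alone it was -3.89 points (-16.5 to 9.11).

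**Figure D3:**
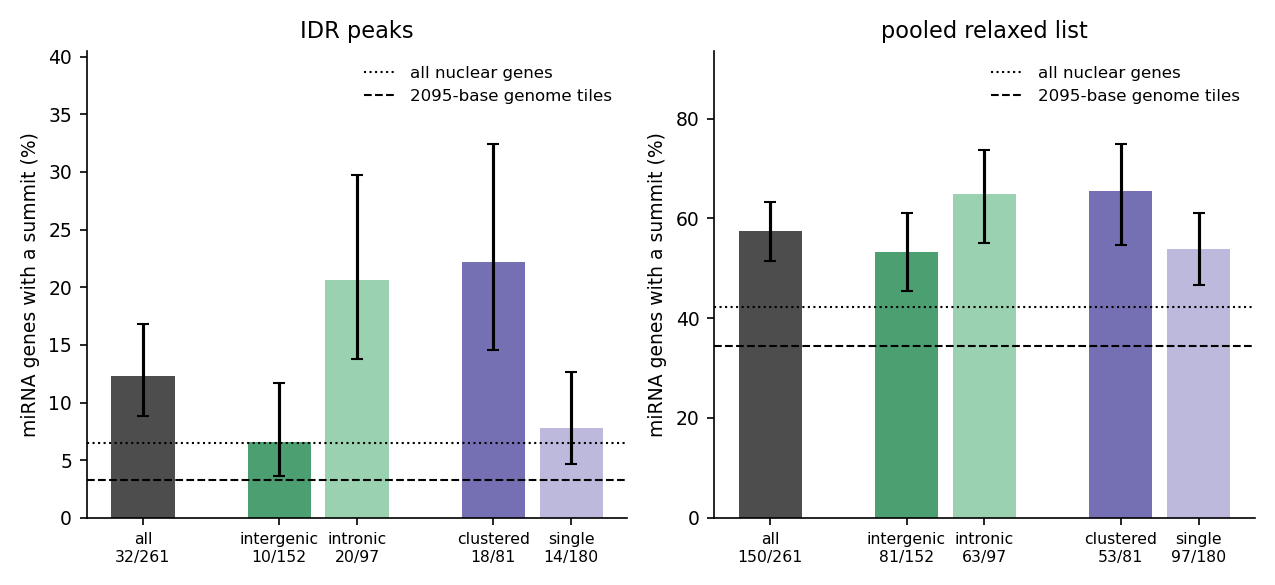
Share of miRNA genes with a summit in the window, in percent, for all members, intergenic and intronic genes, and clustered and single genes, in the IDR list (left) and the pooled relaxed list (right). Bars carry 95% Wilson intervals, counts stand under them, and lines give all nuclear genes (6.49% and 42.3%) and genome tiles (3.26% and 34.4%).

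By chromosome, an IDR summit was found at 5 of 33 miRNA genes on I (15.2%), where 13.0% of protein-coding genes had one, and at 10 of 49 on II (20.4%), against 8.96%. On III it was 5 of 27 (18.5%), against 13.0%, on IV 4 of 50 (8%), against 8.32%, and on X 8 of 74 (10.8%), against 9.78%. On V it was 0 of 28, which allows a share of up to 10.7% (12.1% by the Wilson interval), against 5.61% of protein-coding genes. The miRNA shares on I, IV and X were thus close to those of protein-coding genes. On II, 6 of the 10 were mir-35 to mir-40.

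More of the IDR summits lay upstream of the nearest miRNA gene than downstream, and the sides were closer in the pooled list. In all, 25 IDR summits fell in the windows, 16 upstream of the nearest member, 1 inside it and 8 downstream, at a median distance of 262 bases from it. Of the 176 pooled summits, 91 were upstream (51.7%), 12 inside and 73 downstream (41.5%). No expected share for either side was computed, and the difference was not tested. At antisense pairs the side depends on the gene taken. The summit of rank 1650 lay 288 bases downstream of mir-8186-1 and 289 upstream of mir-8186-2. Only 9 of the 25 IDR summits (36%) lay within 1000 bases of a protein-coding start, against 62.8% of all nuclear IDR summits. For 22 of the 32 genes, at 12 distinct summits, the strongest summit was over 1000 bases from any such start. It was also upstream of the miRNA for 15 of them, at 8 distinct summits. Within 200 bases of a tRNA, snoRNA or snRNA gene lay 1 of the 25 (4%), against 12.8% of all nuclear IDR summits.

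**Figure D4:**
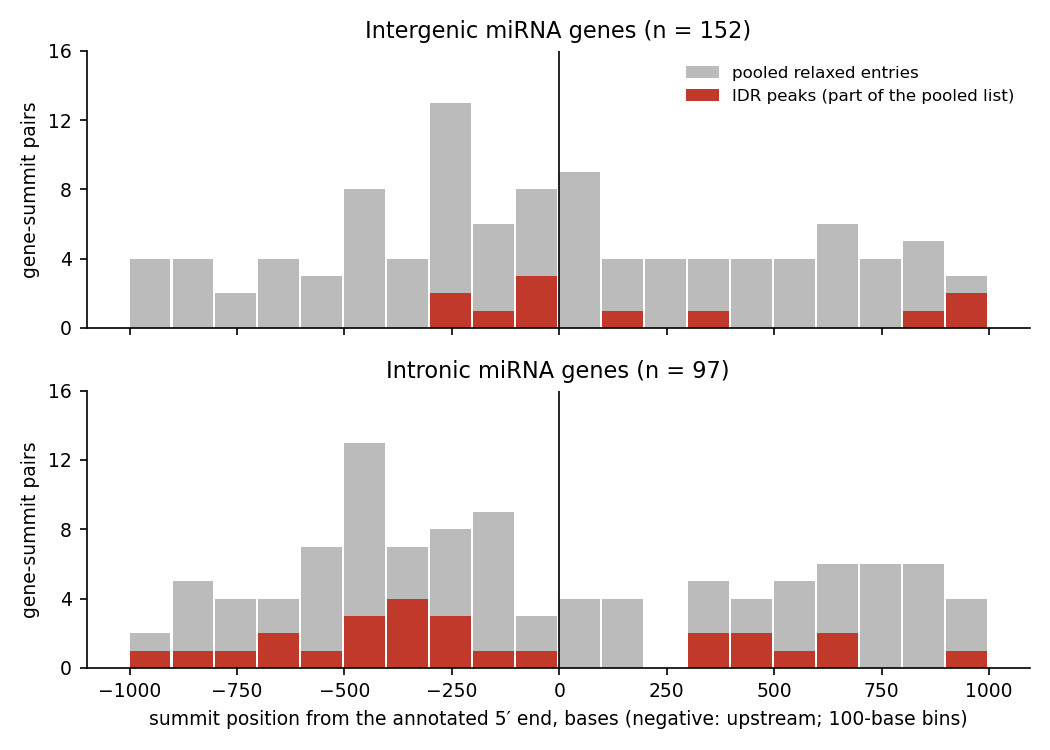
Number of pairs of a miRNA gene and a summit in its window, in bins of 100 bases from the annotated 5′ end of the gene (negative is upstream), for the 152 intergenic and 97 intronic genes. Grey bars are pooled relaxed entries and red bars the IDR peaks among them, and a summit shared by neighbours counts for each of them, as for mir-35 to mir-40.

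The hexamers GAGAGA and TAATTA were looked for within 50 bases of the summits, on both strands, where GAGAGA can overlap itself and TAATTA is its own reverse complement. GAGAGA was present at 9 of the 25 IDR summits (36%), against 25.9% of all nuclear IDR summits and 5.18% of all 101-base tiles of the nuclear genome. It was at 7 of the 9 summits whose nearest member was intergenic and 1 of the 14 whose nearest member was intronic. These shares were closer in the pooled list, 19 of 89 (21.3%) and 12 of 77 (15.6%). In the sequences printed above it stands at the weaker mir-52 summit and at mir-90 and mir-80, and not at the stronger mir-52 summit, mir-51, mir-54, mir-35 or mir-124. TAATTA was at 0 of the 25, which allows a share of up to 12%, against 5.86% of all nuclear IDR summits and 4.75% of tiles. At the 176 pooled summits the shares were 18.2% for GAGAGA and 6.82% for TAATTA. The 25 windows had a mean GC content of 51.4% ± 8.43 (SD over summits), against 48.0% ± 8.61 over all nuclear IDR summits.

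The replicates shared the entries at the stronger genes and differed in which of the weaker ones they held. An entry was present in both replicates at 90 members, in replicate 1 alone at 53, in replicate 2 alone at 33 and in neither at 85. All 32 genes with an IDR summit had an entry in both, which the IDR filter favours, as it scores agreement between the replicates. Of these 32 genes, 29 were among the strongest 1681 entries of replicate 1, 22 among those of replicate 2 and 19 in both. Of the same genes, 20 ranked higher in replicate 1. These counts are by gene and rest on 21 distinct strongest summits. The summit of mir-35 to mir-40, at rank 1073 in replicate 1 and 1811 in replicate 2, counts for 6 genes. Members with an entry in 1 replicate were weaker, with a best rank of 2585 in replicate 1 and 3743 in replicate 2. Over the 90 members with entries in both, Spearman's rho of the strongest signal was 0.731, a description over genes of which neighbours share summits.

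The largest differences in rank were at genes with no IDR summit, as a filter on agreement in rank favours. The 3 members that ranked highest in replicate 2 relative to replicate 1 were mir-8201 (2013 in replicate 2 and 13582 in replicate 1), mir-8202 (2552 in replicate 2 and 12885 in replicate 1) and mir-2218a (1852 in replicate 2 and 8384 in replicate 1). In the other direction they were mir-73 and mir-74, at a shared summit (1074 in replicate 1 and 7296 in replicate 2), and mir-794 (2665 in replicate 1 and 15586 in replicate 2).

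**Figure D5:**
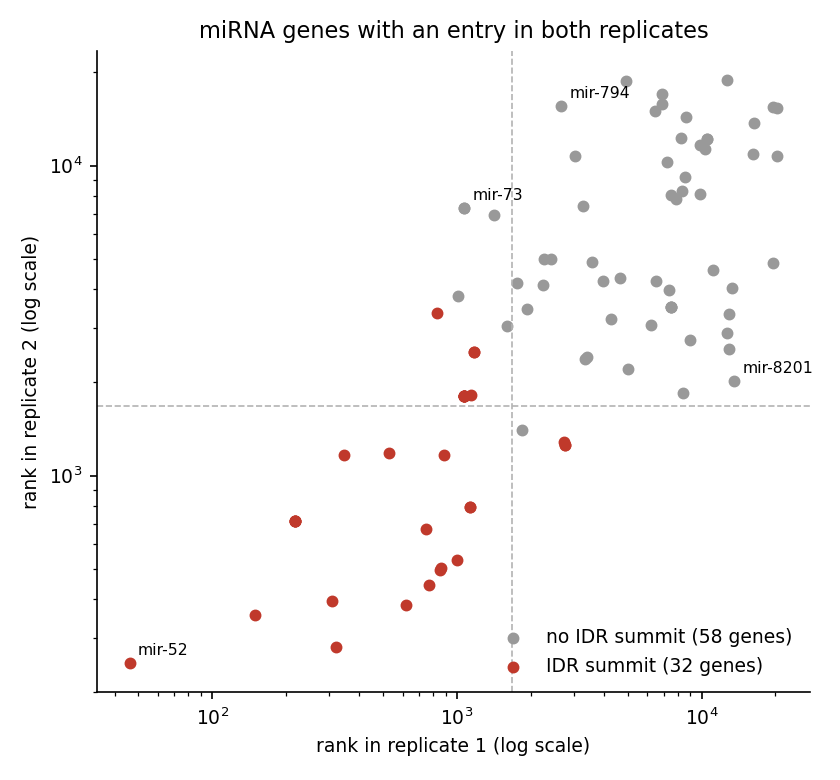
Rank of the strongest entry in replicate 1 (x axis) and replicate 2 (y axis), both on log axes, for the 90 miRNA genes with an entry in both, coloured by whether an IDR summit lay in the window. Dashed lines mark rank 1681, and mir-52 is at the lower left with ranks 46 and 248.

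Genes of the miRNA pathway were scored by the same window. Of 12 genes that make miRNAs, regulate them or act with them, 6 had an IDR summit, where 9.25% of all protein-coding genes had one, and 11 had a pooled summit, where 57.1% did. For nhl-2, an effector cofactor of miRNAs, the rank was 208 with a signal of 177.3, 766 bases from its start. The next was ain-1, which encodes a GW182 protein, at rank 331 and 888 bases from its start. The RNA helicase gene cgh-1 ranked 828, at 788 bases, and lin-28, which blocks let-7 maturation, ranked 1161, at 2 bases. The Argonaute gene alg-2 ranked 1556, at 342 bases, and pash-1, the partner of Drosha, ranked 1679, at 56 bases. The pash-1 entry ranked 949 in replicate 2 and 8676 in replicate 1. The processing enzymes drsh-1 and dcr-1, the Argonaute gene alg-1, ain-2 and the nuclease gene xrn-2 had pooled entries between rank 4279 and rank 11810. There was no entry at pup-2.

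A further list held 10 genes taken as targets of lin-4, let-7, lsy-6 or mir-1. That each is a target, mec-2 in particular, was not established here. Of the 10 genes, 4 had an IDR summit, where 9.25% of all protein-coding genes had one. All 10 had a pooled summit, where 57.1% did. They were lin-14 (rank 244, signal 168.4, 1960 bases from its start), the target of lin-4, daf-12 (rank 1091), die-1 (rank 1098) and lin-28, which is in both lists. The other 6 were lin-41 and hbl-1, targets of let-7, with let-60, cog-1, mec-2 and unc-29, at pooled ranks between 4799 and 18352. Both lists are short and were chosen with earlier results of these data known, so their counts carry no test.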

How the data were processed

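Peaks of CEH-14-GFP ChIP-seq were used from 2 biological replicates. The signal value of each peak was deposited by the authors, with normalization not given. Neither the aligner nor the peak caller is given in the sources used here, nor is the IDR limit. Per the sample records deposited with the lists, the relaxed lists derive from the alignments and 1 further file of a kind not stated, and the IDR peaks from the relaxed lists. The ce11 lists were set against WBcel235, whose chromosome lengths no entry passed. Entries on the mitochondrial genome and the ce10 lists were left out.

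Windows of 1000 bases, classes and shares were computed with Python 3.11.15, pandas 2.3.3 and numpy 2.4.6 and tested on simulated data. Intervals are 95% Wilson for shares and 95% Newcombe for differences. The share that a count of 0 is said to allow is 3 divided by the number counted. With 1 group and no control library, no test was run. For 6 genes, let-7 among them, the RefSeq symbol replaced the Ensembl name.

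Named genes are all with an IDR summit, the next 10 by pooled signal, the 3 with the largest rank difference in each direction, and chosen families and lists. The members, lists and hexamers were chosen with earlier results of these data known. Alternatives changed the window, peak set, replicate, host strand and cluster definition.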

Additional observations from a re-analysis of the deposited data

How the results depend on the processing

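The share of miRNA genes with an IDR summit (12.3%) was 8.43% with windows of 500 bases and 21.5% with 2000, 6.51% with the stronger part of the IDR peaks, 8.43% without peaks near a protein-coding start and 8.81% with a summit given to the nearest miRNA gene. With the strongest entries of 1 replicate in place of the IDR peaks it ran between 8.81 and 13.0%. The pooled share (57.5%) was 40.2% at 500 bases, 70.1% at 2000, 24.5% with the 5000 strongest entries, and 47.1 to 54.8% in the replicates. The intergenic minus intronic difference in the IDR list was 0.148 points with hosts on the same strand only and -5.05 points without the mir-35 and mir-54 clusters, and stayed negative, between -15.4 and -7.01 points, in the other 11 of 13 alternatives, those with 1 replicate being -8.14 and -12.7. The clustered minus single difference ran between 3.33 and 18.7 points with 1 replicate and was positive in all 15 alternatives. In the pooled list it was -3.89 points without replicate 1 and 11.9 without replicate 2, and the intergenic minus intronic difference stayed negative in 6 of 6 alternatives, -18.3 to -14.9 points with 1 replicate. The cause of these shifts was not tested. Counting each cluster once for the share and for the intergenic minus intronic difference, and leaving out the mir-35 and mir-54 clusters, were chosen after the data were seen. No paired analysis was possible because there is 1 group and no test. Depth is unknown, and weak entries of the relaxed lists cannot be told from background.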

Other observations

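Genes of the first miRNAs to be named had peaks more often than those named later, a grouping chosen after its values were seen. Of lin-4, let-7, lsy-6 and the genes numbered up to mir-90, 18 of 61 had an IDR summit (29.5%, 95% Wilson interval 19.6 to 41.9%), against 14 of 200 later-named genes (7%, 4.22 to 11.4%). The share was 6.49% of all nuclear genes and 9.25% of protein-coding genes. The 18 genes held 10 distinct strongest summits. By locus the counts were 9 of 43 and 13 of 171, since mir-35 to mir-40 and mir-54 to mir-56 are among the early-named genes. In the pooled list, 52 of 61 early-named and 98 of 200 later-named genes had a summit (85.2% and 49%). There the share was 42.3% of all nuclear genes and 57.1% of protein-coding genes. The difference between early-named and later-named genes was not tested.

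Genes with the seed GAUAUGU, which are mir-50, mir-62 and mir-90, lie in introns on different chromosomes. IDR summits lay at mir-90 (rank 416) and mir-62 (rank 1171), and mir-50 had a pooled entry at rank 4214.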
